A study of Mus musculus with 8 samples.

Results

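Messenger RNA genes that NIH3T3 cells left silent, and whose probes became detectable only after cordycepin, are described here. A gene was counted as silent where none of its probes for a RefSeq mRNA was well above background, by the scanner's own flag, on any of the 5 arrays of cells without cordycepin. It was a member where a probe of it was also well above background on all 3 arrays of cells given cordycepin. Olfactory receptor and interferon genes were left out by the rule. Of 18924 genes with an mRNA probe, 4768 were silent, and 2.24% of these met the rule, through 108 probes, with 1 probe per gene but for Gm6408, which had 2. With the scanner's weaker flag, for a positive and significant signal, in place of well above background, 43 genes met the rule. Silent thus does not mean without any signal. A further 246 silent genes were detected on 1 or 2 cordycepin arrays, and 4415 on none. Members were thus selected on the detection flags of the 8 arrays, and their signal on the cordycepin arrays against the others is a description, without a test.

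NIH3T3 is an immortalised line of mouse embryonic fibroblasts, labelled male. All cells spent 24 h in 0.5% newborn bovine serum before treatment. The cordycepin group received 20 µM cordycepin in DMSO for 90 min with serum during the last 30 min (3 arrays), the serum group DMSO and serum (3 arrays), and the no serum group DMSO alone (2 arrays). These times are from the sample labels, whereas the series text can be read as serum added after the full cordycepin exposure. No array held cells given cordycepin without serum, so cordycepin was only compared in serum-treated cells, and both cordycepin comparisons share the same cordycepin arrays. The series describes the cultures as independent triplicates, but the labels do not say what was replicated, so the spread between arrays may in part be technical. The arrays report RNA from whole cultures, in which RNA in few cells and little RNA in every cell cannot be told apart. Across the 8 arrays 51.1% to 57.1% of all probes were well above background, no spot was saturated, and 10 of 10 fibroblast markers were detected on all 5 arrays without cordycepin. Of the markers for other cell types, 18 of 41 were detected on those 5 arrays, and 20 on the 3 cordycepin arrays.

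Cordycepin is 3′-deoxyadenosine, an adenosine analogue that cells convert to a triphosphate. It has no 3′ hydroxyl group, so an RNA chain or poly(A) tail that takes it up cannot be extended. In mammalian cells the end of an mRNA is made by cleavage at a polyadenylation signal followed by tailing, and termination of RNA polymerase II further downstream is coupled to that cleavage. A silent gene in a fibroblast is commonly a gene of another cell type, and its probe then reads only background unless RNA covers its sequence.

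The detection of a gene rested on a single 60-base probe in most cases. The first 30 bases of the probes with the 6 largest bounds on the fold are shown, since these letters are what the array measured. They are from the array files, in the sense of the mRNA, with positions in mouse build mm9. The files also give where a probe starts in its transcript, such as 1487 for Gpr84, but not its exon or untranslated region.
Gpr84 (chr15:103138700-103138729, minus strand): gtcaaccctgtgtgacccaaggagtgtggt
Ptcra (chr17:46892857-46892886, minus strand): tcagacagggcaggaggatgcacctggtaa
Grb7 (chr11:98316616-98316645, plus strand): ctgtacagactgagaggccagttgatctgc
Gdf15 (chr8:73153323-73153352, minus strand): ctgggtggatggattgtgtatttatttaaa
Dhdh (chr7:52728968-52728997, minus strand): cctagggtcaactatcaaaagtgtgctctt
Fpr2 (chr17:18030540-18030569, plus strand): aaattcttgacatgtttgttaacccaacaa
The member probes had a median GC content of 41.7%, against 40% for probes of silent genes that stayed undetected and 41.7% for genes detected on all 5 arrays. A run of 6 or more A or T bases was found in 3 member probes (2.8%), in 5.41% of the probes of undetected silent genes and in 6.5% of those of detected genes.

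Signals are log2 values after the array's own 75th percentile was subtracted, so that 0 is the level of a fairly bright probe. With cordycepin the member genes were detected but dim. Their mean over the 3 cordycepin arrays ranged from -5.0 to -0.42, with a median of -3.93, which is 6.56% of the 75th percentile. Ptcra alone passed the 75th percentile, on 1 array. The median over the genes was -3.58, -3.94 and -4.21 on cordycepin replicates 1 to 3. It was -7.04, -7.06 and -7.10 on the serum arrays and -7.46 on both arrays without serum. The SD of a gene over the 3 cordycepin arrays had a median of 0.37 and ran from 0.06 to 1.01. Cordycepin replicate 1 gave the highest value for 83 of these genes. It was also the dimmest array before scaling, with a 75th percentile of 350 against 460 to 802 on the others. Whether the scaling raised its values was not tested.

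Every cordycepin array was above each of the 5 others for 106 genes, as the rule nearly requires, and among all 25530 probes of this kind the share was 12.3%. B3gnt6, a glycosyltransferase of mucin core synthesis, was the exception, with its lowest cordycepin value 0.06 under the highest serum value. In the fit across 30863 probes, 105 members passed the threshold for higher signal with cordycepin plus serum than with serum, as did 7.63% of all probes tested and 3.54% of the 17899 mRNA probes. Against no serum 104 passed, with 6.48% of all probes. After normexp background correction 26 and 49 members passed. Since the rule used these contrasts, nothing is read from the counts.

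**Figure D1:**
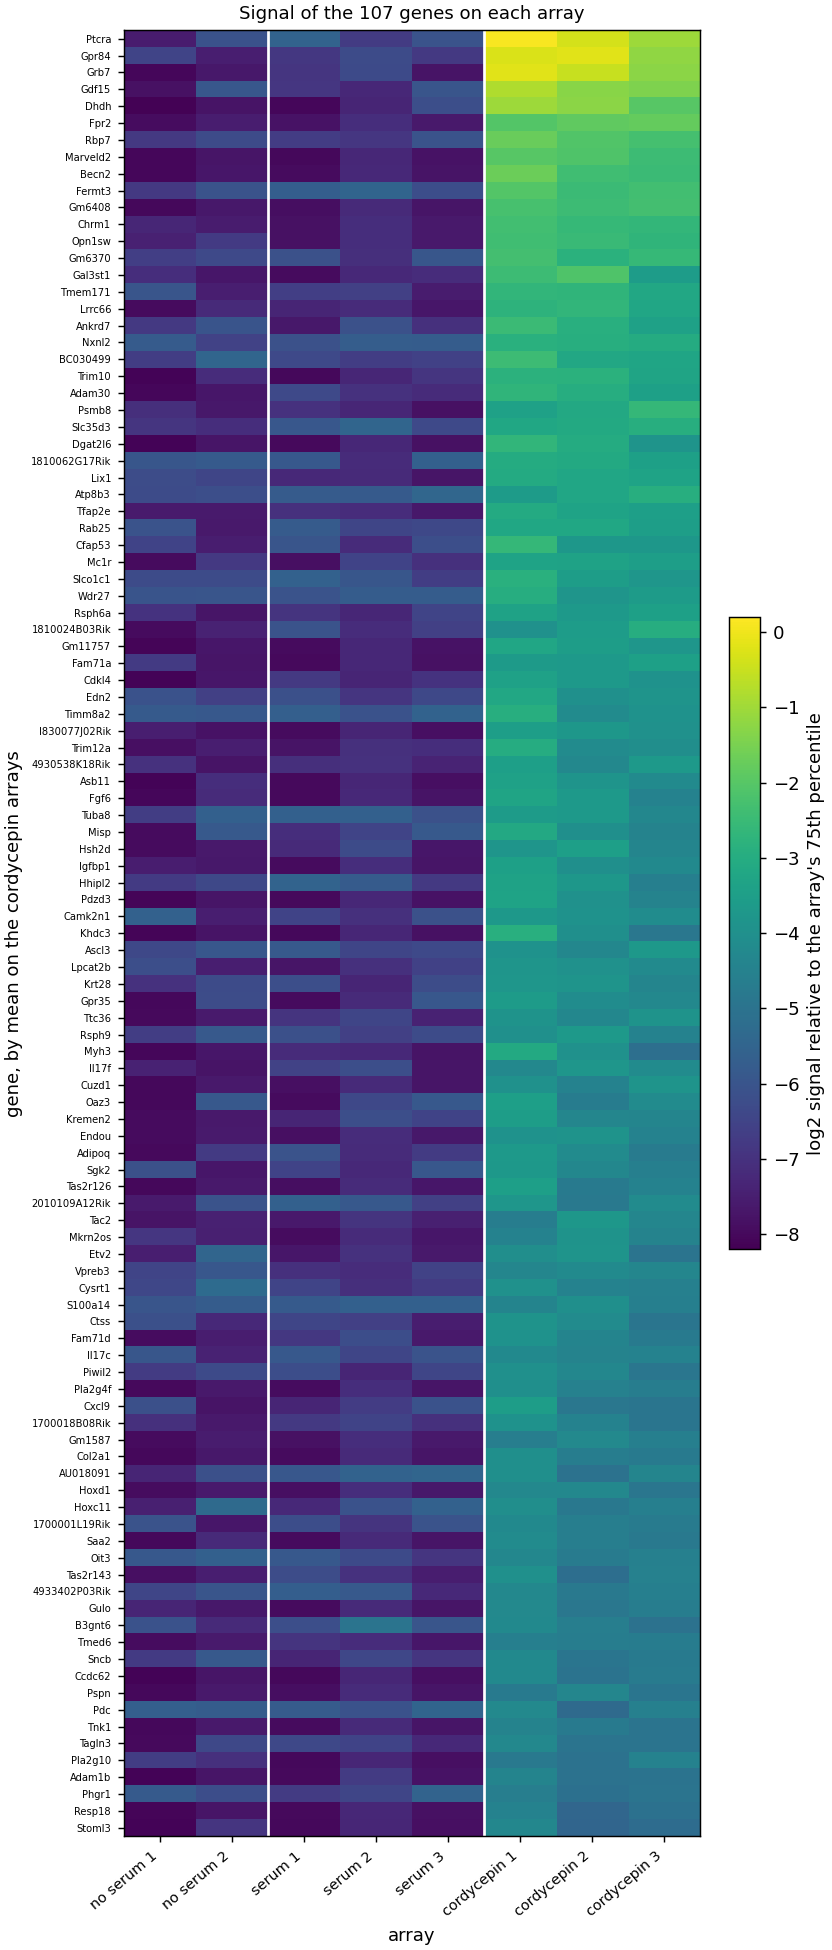
Heat map of the log2 signal of the member genes (rows, ordered by their mean on the cordycepin arrays) on the 8 arrays (columns, grouped as no serum, serum and cordycepin plus serum), relative to the 75th percentile of each array. The 5 columns without cordycepin stay dark for nearly all genes, while the 3 cordycepin columns range from a mean of -0.42 for Ptcra down to -5.0.

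Probes not well above background give only an upper limit for the silent groups. The fold of each gene was therefore bounded from below, using on each array without cordycepin the dimmest signal still well above background, or the gene's own signal if that was larger. Against serum the bound was 1.47 to 31.9, with a median of 2.98. It was at least 2 for 92 genes and at least 10 for 9 genes. Such bounds do not order the genes among themselves. Every fold given below as at least a value holds only for the main background subtraction. After normexp background correction the log2 differences of the 34 named genes from serum ran from 0.36 to 2.74, rather than 1.10 to 6.34. They were 2.58 for Gpr84, 2.6 for Ptcra and 2.74 for Grb7, which is less than the bounds of these genes.

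The genes with the largest bounds belong to blood cells, epithelia, the nervous system and general metabolism rather than to a single tissue. Gpr84, a receptor for medium-chain fatty acids known from myeloid cells, had log2 signals of -0.29, -0.18 and -1.21 on the cordycepin arrays. It lay between -6.85 and -6.28 on the serum arrays and at -6.48 and -7.49 without serum. With cordycepin it was at least 31.9-fold higher than with serum alone under the main background subtraction. Fpr2, a formyl peptide receptor of neutrophils and macrophages, read -2.05, -1.84 and -1.78 with cordycepin and between -7.92 and -7.09 on the 5 other arrays, a difference of at least 12.7-fold from serum. For both receptors every cordycepin array lay above all 5 others, as the rule nearly requires. They were the only members among 66 silent genes in the list for myeloid cells (3.03%), near the 2.24% of all silent genes. Fermt3, the kindlin of blood cells that activates integrins, was at least 8.99-fold higher.

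Ptcra, which encodes the pre-T cell receptor alpha chain of developing thymocytes, read 0.12, -0.35 and -1.04 with cordycepin, -5.52, -6.73 and -6.04 with serum and -7.57 and -6.10 without. It was at least 31.6-fold higher than with serum. In a list of T cell and NK cell genes, which does not hold Ptcra, 0 of 41 silent genes were members, beside 2.24% of all silent genes. Grb7, an adaptor protein that binds receptor tyrosine kinases such as Erbb2, read -0.18, -0.51 and -1.26 with cordycepin and between -8.06 and -6.31 on the 5 other arrays, at least 29.9-fold over serum. Gdf15, a stress-induced cytokine of the TGF-β family, read -0.81, -1.28 and -1.43, against -7.83 to -5.91 on the others, at least 20.8-fold over serum. For these 3 genes the groups did not overlap, as the rule nearly requires.

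Dhdh, a dihydrodiol dehydrogenase, was at least 17.5-fold higher than with serum, at -1.42 ± 0.50 (SD, n = 3) with cordycepin. Rbp7, a retinol-binding protein, stood at -2.02 ± 0.29 (SD, n = 3) and at least 11.6-fold over serum. Marveld2, which encodes tricellulin of tricellular tight junctions, stood at -2.18 ± 0.23 (SD, n = 3) and at least 10.4-fold over serum. Becn2, a mammalian relative of the autophagy gene Becn1, was at least 10.3-fold higher, and Chrm1, the M1 muscarinic acetylcholine receptor, at least 8.19-fold. In these 5 genes too the groups did not overlap, which the rule nearly requires.

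**Figure D2:**
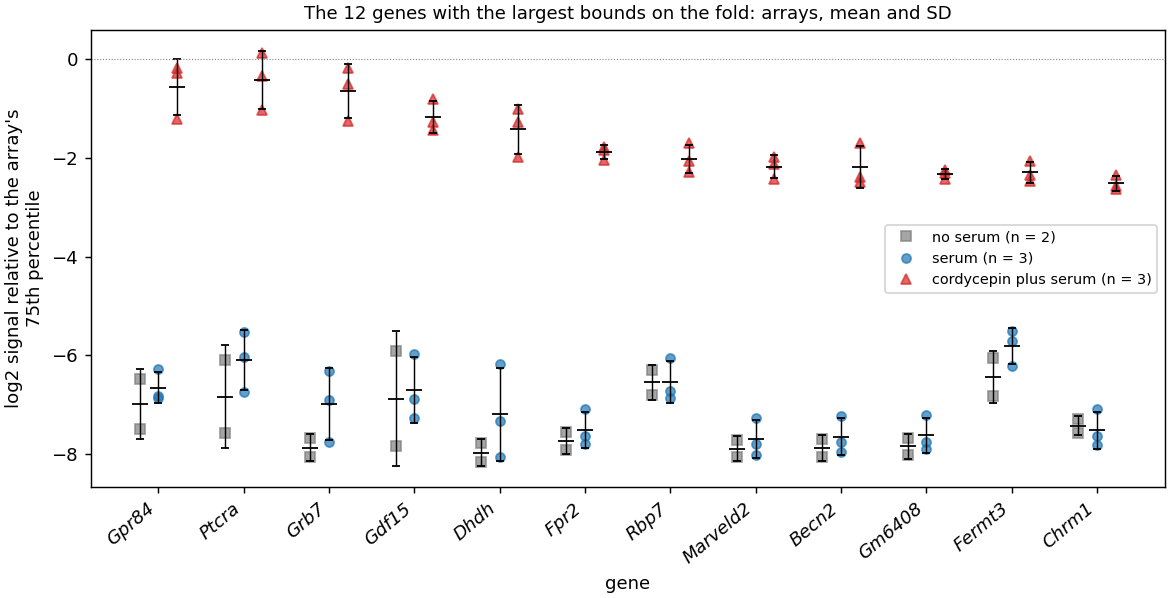
Log2 signal of the 12 genes with the largest bounds on the fold, relative to the 75th percentile of each array (dotted line at 0), with 1 point per array and bars for the mean and SD of no serum (n = 2), serum (n = 3) and cordycepin plus serum (n = 3). All cordycepin points lie between -2.63 and 0.12 and all others between -8.16 and -5.50, where the probes were not well above background.

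The members were spread over 14 of 17 gene lists, and 68 were in none of them. Of 113 silent G protein-coupled receptors outside the smell and taste families, 4 (3.54%) were members, namely Fpr2, Gpr84, Gpr35 and Mc1r. Mc1r, the melanocortin receptor that sets coat colour, read -3.38 ± 0.09 (SD, n = 3) with cordycepin. Of 84 silent cytokines, chemokines and their receptors 3 (3.57%) were members, the interleukins Il17c and Il17f and the interferon-induced chemokine Cxcl9. Their cordycepin means were -4.38, -4.07 and -4.45, and each was at least 2.15-fold higher than with serum. These shares are near the 2.24% of all silent genes.

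Germ cell and reproductive genes gave 3 of 172 (1.74%), the sperm proteases Adam1b and Adam30 and Piwil2, a Piwi protein of the piRNA pathway. Developmental transcription factors gave 3 of 111 (2.7%), Hoxc11, Hoxd1 and Ascl3. Transporters gave 2 of 141 (1.42%), Slc35d3 and the phospholipid flippase Atp8b3, at least 5.46-fold and 4.64-fold higher than with serum. Adam30 read -2.72, -2.96 and -3.41 on the cordycepin arrays, against -8.06 to -6.35 on the others.

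The other lists are set beside the same 2.24% of all silent genes. Of 187 silent epithelial and skin genes, Krt28, an inner root sheath keratin, was the single member (0.535%). Ion channels and neurotransmitter receptors gave Chrm1 of 148 (0.676%), and liver, gut, kidney and pancreas genes gave Slco1c1, a thyroid hormone transporter, of 118 (0.847%). Taste and vomeronasal receptors gave Tas2r126 and Tas2r143 of 256 (0.781%). Muscle genes gave Myh3, the embryonic myosin heavy chain, of 34 (2.94%), B cell genes Vpreb3 of 18 (5.56%), and neuronal genes Tac2, the neurokinin B precursor, of 52 (1.92%). No silent gene of the 33 for mast cells, platelets and red cells or of the 26 numbered zinc fingers was a member. Genes with clone or model names gave 16 of 537 (2.98%).

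The position of the members on the chromosomes, which the rule did not use, was then compared with that of other genes. Most members followed a detected gene on their own strand. For the 98 members whose probe is placed on a chromosome in mm9, the nearest mRNA probe of another gene was found on each strand and side, with upstream and downstream taken in the direction in which the member is transcribed. The upstream gene on the same strand was detected on all 5 arrays without cordycepin for 88 of 98 members (89.8%). The share was 52.8% for silent genes not detected with cordycepin and 72.7% for genes that were themselves detected on all 5 arrays. The distance between the 2 probes had a median of 22.9 kb for members, against 105 kb and 87.5 kb. Since a probe usually lies near the end of its transcript, this distance contains the body of the member gene.

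Counting upstream same-strand genes that were both detected and within 50 kb, 74 of 98 members had one (75.5%), against 537 of 4184 undetected silent genes (12.8%) and 27.2% of detected genes. Silent genes seen on only 1 or 2 cordycepin arrays lay in between, with 69 of 235 (29.4%). The other positions differed less. The nearest downstream gene on the same strand was detected and within 50 kb for 29.6% of members and 15.0% of undetected silent genes. On the opposite strand the shares were 18.4% and 8.44% upstream, and 29.9% and 24.3% downstream. Genes detected on all 5 arrays had 27.5%, 19.3% and 40.8% in these 3 positions.

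**Figure D3:**
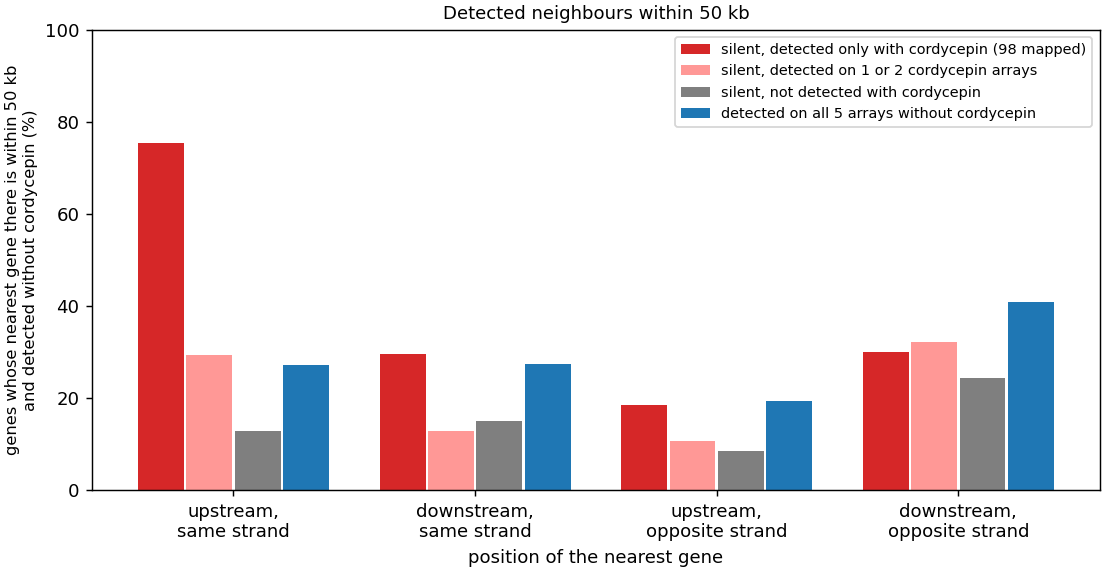
Percentage of genes whose nearest gene in each of 4 positions was within 50 kb (probe to probe) and detected on all 5 arrays without cordycepin, for the 98 mapped members (red), silent genes detected on 1 or 2 cordycepin arrays (pink), silent genes not detected with cordycepin (grey) and genes detected on all 5 arrays (blue). Members reach 75.5% upstream on the same strand and 18.4% to 29.9% elsewhere.

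The share of silent genes that became detectable fell with the distance to the nearest detected gene upstream on the same strand. It was 15 of 92 (16.3%) within 10 kb, 36 of 255 (14.1%) from 10 to 25 kb, 6.04% from 25 to 50 kb and 1.93% from 50 to 100 kb. Beyond 100 kb it was 10 of 3130 (0.319%). With the detected gene upstream on the opposite strand, 0 of 40 silent genes within 10 kb were members, and 7.27%, 4.5%, 3.66% and 1.63% in the following ranges. Downstream of the silent gene on the same strand the range was 6.0% within 10 kb to 1.55% beyond 100 kb. Even where the upstream gene was near and detected, most silent genes were thus not detected with cordycepin on all 3 arrays.

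**Figure D4:**
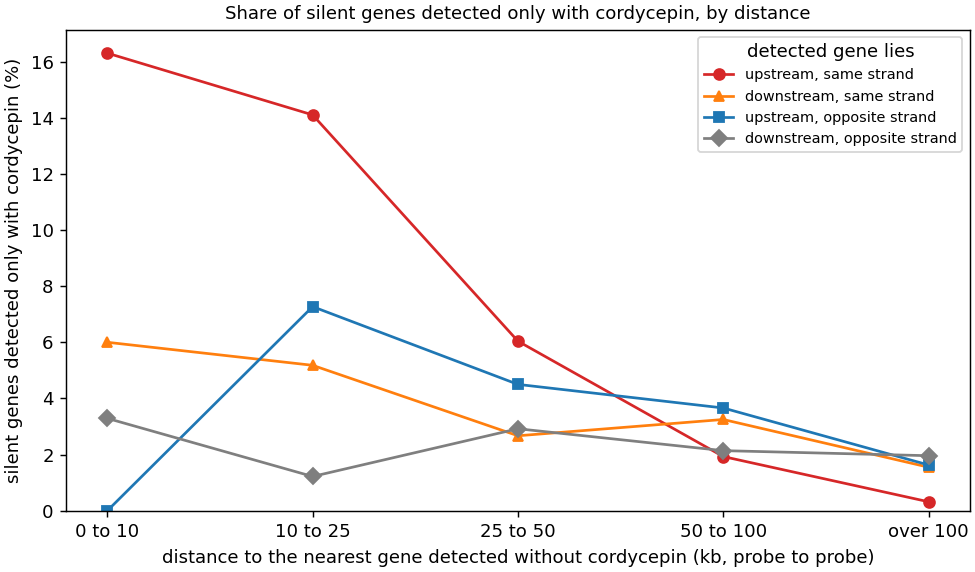
Percentage of silent genes that were detected only with cordycepin (y axis) by distance in kb to the nearest gene detected on all 5 arrays without cordycepin (x axis), with 1 line for each strand and side. The line for detected genes upstream on the same strand starts at 16.3% and ends at 0.319%, and the other lines stay at or below 7.27%.

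The individual pairs show what these shares count. Gpr84 followed Zfp385a, a zinc finger gene, with 6.33 kb between the probes. Grb7 followed Erbb2, the receptor tyrosine kinase, at 18.5 kb, and Ptcra followed Rpl7l1, a ribosomal protein-like gene, at 19.8 kb. Gdf15 came after Pgpep1 at 20.7 kb, Dhdh after Nucb1 at 19.6 kb, Rbp7 after Nmnat1 at 19.1 kb, Marveld2 after Rad17 at 21.1 kb and Becn2 after Exo1 at 13.6 kb. Fpr2 and Chrm1 were farther from a detected gene, at 55.5 kb from Spaca6 and 57.1 kb from Slc22a6. Fermt3 was not placed on a chromosome in the files.

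Shorter and longer distances occurred among other members. Mc1r followed Tcf25 at 6.97 kb, Il17c followed Zc3h18 at 6.06 kb, and Adam30 followed Notch2 at 12 kb. Some pairs were relatives of one family, such as S100a14 after S100a13, Hoxd1 after Hoxd3, Krt28 after Krt10, Adam1b after Adam1a, Ctss after Ctsk, Cxcl9 after Cxcl10 and Trim12a after Trim12c. In others the pair shared no family, such as Adipoq, the adipocyte hormone, after the translation factor Eif4a2 at 43.6 kb, and Psmb8, an immunoproteasome subunit, after the peptide transporter Tap1 at 6.92 kb.

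The upstream gene was not detected on all 5 arrays for 10 members, which were Gm6370, Slco1c1, AU018091, Opn1sw, 4933402P03Rik, Hoxc11, Sgk2, Gm11757, Tas2r126 and Gulo. They were named because they are the exceptions. Opn1sw, the short-wavelength cone opsin, read -2.38, -2.51 and -2.69 on the cordycepin arrays. The gene before 4933402P03Rik (now Spem2) was Spem1, a spermatid maturation gene 3.73 kb away. Spem1 was itself higher with cordycepin by 4.66 ± 0.21 (log2 difference from serum ± SE, limma adjusted p 9.77e-06), and was detected on 2 of the 5 arrays without it.

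The signals of the upstream genes themselves were not used by the rule, so their change was tested. Of the 88 detected ones, 82 were not called in cordycepin plus serum against serum (limma, adjusted p under 0.05 and a log2 difference of at least 1). The median log2 difference was 0.10, and 0.06 over all 12246 genes detected on the 5 arrays. Some genes not called passed the adjusted p and missed only the log2 threshold, in both directions. Examples are Mul1 before Camk2n1 (-0.99 ± 0.1, SE, limma adjusted p 0.000271), Myo1a before Tac2 (0.98 ± 0.13, 0.00111) and Exo1 before Becn2 (-0.78 ± 0.16, 0.0118). For Zfp385a the difference was 0.18 ± 0.13 (SE, limma adjusted p 0.391), for Erbb2 -0.18 ± 0.21 (0.579) and for Rpl7l1 -0.14 ± 0.12 (0.459). None of these 3 upstream genes was called, and the silent gene behind each was at least 29.9-fold over serum.

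Called higher were 3 of the 88 (3.41%), against 1.98% of all detected genes. They were Spaca6 before Fpr2 (55.5 kb), Ephx4 before Lpcat2b (4.18 kb) and Kcnc1 before Saa2 (316 kb). Called lower were also 3 (3.41%), against 2.66% of detected genes and 2.87% of all probes tested. These were Ptgs2 before Pdc (226 kb), Polr3d before Piwil2 (66.5 kb) and Atf3 before Fam71a (8.08 kb). Ptgs2, the inducible cyclooxygenase, and Atf3, an early-response transcription factor, were also the 2 of these 88 upstream genes that serum induced. Atf3 stood at 1.54 ± 0.21 (SD, n = 3) with cordycepin, 3.23 ± 0.37 (SD, n = 3) with serum and -1.47 without, a difference of -1.69 ± 0.24 (SE, limma adjusted p 0.00163) between the first 2 groups. Fam71a, 8.08 kb behind it, was silent with and without serum and was detected only with cordycepin, when Atf3 was lower than with serum alone.

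**Figure D5:**
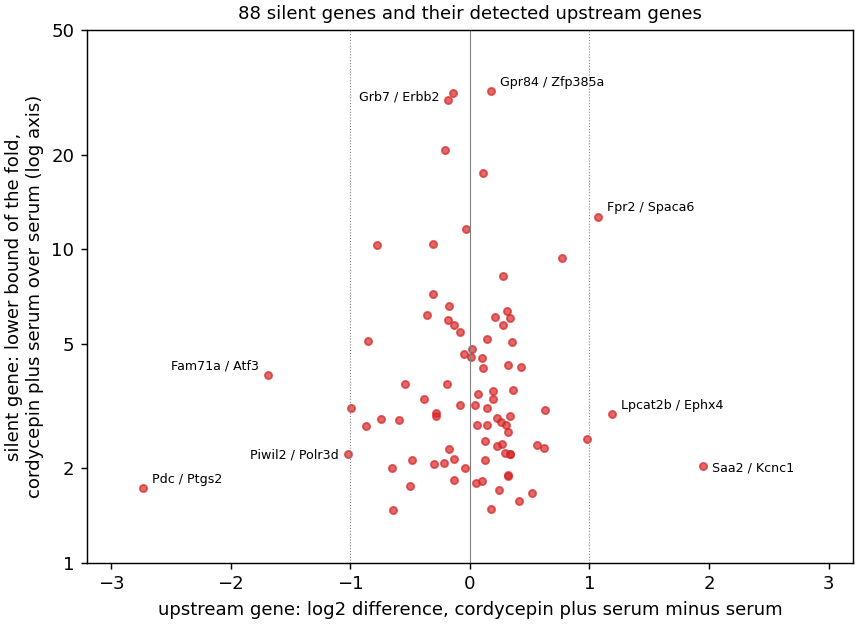
Each of the 88 members with a detected upstream same-strand gene, plotted by the log2 difference of that upstream gene between cordycepin plus serum and serum (x axis, dotted lines at -1 and 1) and the lower bound of the fold of the member itself (y axis, log scale). Most points lie near 0 on the x axis while the bounds reach 31.9, and the labelled pairs give the silent gene first.

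Probes for other RNA types placed between a member and its upstream gene gave little coverage. On the member's strand there were 71 such probes before 19 members, and 3 of them (4.23%) were detected on all 3 cordycepin arrays and none of the others. These were a lincRNA probe before Edn2, 2010310C07Rik before Tas2r143 and LOC102634401 before Hoxd1. On the opposite strand it was 0 of 74, and among all 28949 probes not for a RefSeq mRNA 0.998%. Already detected on all 5 arrays without cordycepin were 21 of the 71, 29 of the 74 and 10544 of the 28949. How RNA covering these genes arose, and whether it reached from the upstream gene, was not tested.

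A second mRNA probe gave a further reading for 12 members, which had 13 such probes. The second probe of Gm6408 was detected on all 3 cordycepin arrays. The files place it 401 kb before the first, and the sequences of the 2 probes match at 26 of 27 bases where their ends are aligned. The second probes of Myh3, Etv2 and Tmed6 were detected on 1 or 2 cordycepin arrays, and the remaining 9 on none. For Chrm1 and Cxcl9 both probes are shown, because they mark a detected and an undetected stretch of the same mRNA.
Chrm1, detected with cordycepin (chr19:8758011-8758040, plus strand): ctctcatatactaggccaacactctacaaa
Chrm1, not detected (chr19:8755342-8755371, plus strand): tggtaagggaagttcccaaagcctaatgaa
Cxcl9, detected with cordycepin (chr5:92752826-92752855, minus strand): aagtcgtcgtcgttcaaggaagactacata
Cxcl9, not detected (chr5:92752221-92752250, minus strand): atgggatttcattattaacttgatcccatc
The undetected Chrm1 probe lies 2.67 kb before the detected one and averaged -7.20 with cordycepin. The undetected Cxcl9 probe lies 0.605 kb behind the detected one and averaged -7.47. Among the 9 undetected second probes, those of Chrm1, Slco1c1, Gpr35 and Krt28 lay before the member probe, and those of BC030499, Trim12a, Cxcl9 and Tnk1 behind it, with no signal well above background there. By the weaker flag the second probes of BC030499 and Krt28 were detected on all 3 cordycepin arrays.

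Silent here means not well above background, which is not the same as no signal. With the weaker flag only 43 genes met the rule. Most members thus had a positive and significant signal on some array without cordycepin, from the member probe or another mRNA probe of the gene. Probes of other types show further limits of the word. Fgf6, a muscle growth factor, had such a probe 3.46 kb behind the member probe that was well above background on all 8 arrays, at -0.55 with cordycepin and -0.42 with serum. Ccdc62 had one at -1.39 and -1.61. The accession of Gm6408 is also listed for a probe of 4930449I24Rik that was detected on all 8 arrays, and that of Gm6370 for another probe of 4930449I24Rik that was detected only with cordycepin, so signal of these related gene models cannot be assigned to a single gene. The array files state no strand for labelled RNA beyond that of the probe.

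The detection flags of single cordycepin arrays are given as a description, since the rule used all 3. When the rule was applied to 2 cordycepin arrays at a time, it found 119, 108 and 136 genes with replicate 1, 2 or 3 left out. Of these, 89.9%, 99.1% and 78.7% were well above background on the array left out. Among silent genes not detected on the other 2 cordycepin arrays, 0.876%, 1.25% and 2.39% were detected on that array. The corresponding search for genes detected on all 3 serum arrays and none of the 5 others found 3 genes, B3gnt5, Mlip and Nkx2-4.

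The threshold cut a continuous range. Just inside it were B3gnt6, the retinal protein Pdc and Phgr1, whose lowest cordycepin value differed from the highest of the others by -0.06, 0.22 and 0.43. Just outside were 42 genes detected on 2 of 3 cordycepin arrays and none of the others, such as Bcl2l10 with -5.08, -4.86 and -4.94 on the cordycepin arrays. Another 45 genes were detected on all 3 cordycepin arrays and on 1 of the 5 others, such as Slc5a2, a renal glucose transporter, with -0.96, -1.76 and -1.61.

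Whether serum alone moved these genes within 30 min was asked last. Serum against no serum was not a contrast of the rule, although the rule kept only genes not well above background in both groups. By limma 1 member was called in either direction, where 0.844% of mRNA probes and 1.73% of all probes tested were called. An unadjusted p under 0.05 was found for 13 members. No share over all probes at that threshold is given, so nothing is read from the 13. The call was Lix1, named after its value was seen, with -7.22, -7.19 and -7.73 with serum and -6.25 and -6.46 without (adjusted p 0.0345). As neither group was well above background for any member, the comparison cannot decide whether serum moved these genes, and no fold is given. The call was lost when any 1 of the cordycepin or no serum arrays, or serum replicate 1, was left out.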

How the data were processed

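Total RNA of 8 cultures was labelled with Cy3 and hybridised to Agilent mouse arrays. The deposited files hold the intensity of each spot, not logged. The authors used Feature Extraction 10.7.3.1 (per the file headers), which subtracts background and flags spots well above it, and probe positions are in mm9. Flags decide membership, so a gene near background can change sides. From the processed intensity the log2 was taken, each array's 75th percentile subtracted, outlier spots dropped and spots of a probe averaged. The arrays' 75th percentiles were 350.0 to 802, and lower brightness gives less precision for dim probes. Tested were 30863 of 55681 probes, those flagged well above background throughout some group, with limma 3.58.1 (R 4.3.3), a mean for each group and Benjamini-Hochberg adjustment. The calculation was tested on simulated data.

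Neighbours were taken from probe positions. Accessions of 106 members matched a current symbol in RefSeq (GRCm38.p6). Promoter sequences were given for 83 of 107 members, too few, so a check of promoter composition was void. Named genes were the 12 with the largest bound against serum, up to 3 per list, the 3 with the smallest gap and those with a second detected mRNA probe. The members and lists were chosen with earlier results of these data known. All arrays shared 1 slide and 1 scan. Other backgrounds, scalings, filters, blocks and left-out arrays were tried.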

Additional observations from a re-analysis of the deposited data

How the results depend on the processing

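The number of genes meeting the rule was 43 with the weaker flag for a signal that is positive and significant in place of well above background, 136 without the clause on other probes, 95 with a gap of at least 1 on the log2 scale, and 108 to 136 with 1 array left out. After normexp background correction, which adds an offset of 50 and so compresses dim probes, 26 genes were called higher against serum and 49 against no serum, and the log2 differences of the 34 named genes from serum ran from 0.36 to 2.74 rather than 1.10 to 6.34. Under quantile normalisation, spike-in centring, no filter, the blocks and each left-out array these counts stayed within 92 and 106. The serum call fell from 1 to 0 under normexp, quantile normalisation, spike-in centring, no filter, the replicate block and the slide row block. The count was 0 to 1 with 1 array left out. At an unadjusted p of 0.05 or less with a log2 difference of at least 1 it was 6, without a share over all probes beside it. Spike-in centring gave a median log2 difference over all probes of -0.35 between serum and no serum, against -0.02. Genes detected on the serum arrays only numbered 3 to 12 with 1 array left out. With the weaker flag 6 second mRNA probes were detected with cordycepin. Upstream genes detected on all 5 arrays numbered 84 with the nearest gene on either strand, and 86 without Fgf6 and Ccdc62, an alternative chosen after seeing the data. Same-numbered cordycepin and serum arrays deviated together with r of -0.0005, -0.1747 and 0.1437, so the numbers do not pair the samples. With the replicate block the counts against serum and no serum were 103 and 102. No result reversed. The dimmest signals that were well above background lay at -5.97 to -5.01, which limits what could be detected.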

Other observations

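Of all genes searched, 11 were detected on the 5 arrays without cordycepin and on none with it, and 12 on the 2 arrays without serum and on none of the 6 others. Among the chromosomes that hold a member, the share of silent genes that were members ran from 0.717% on chromosome X (2 of 279) to 4.67% on chromosome 17 (10 of 214).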
